A study of Mus musculus with 2 samples.

Results

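The cells described here are those of the skin single-cell RNA sequencing of wildtype and *Eppk1*-/- mice that carried more than 45000 unique molecular identifiers (UMIs, each marking 1 captured probe pair) or more than 7500 detected genes, with at most 10% of their UMIs from mitochondrial genes. They lie above the upper limits of the quality filter used in the study and are called cells above the cap. They numbered 265 of 9179 cells in wildtype skin (2.89%, exact 95% interval 2.55 to 3.25) and 185 of 8811 cells in *Eppk1*-/- skin (2.10%, 1.81 to 2.42), or 450 of 17990 cells in all. The cap itself chose these cells, so their UMI and gene totals are a description and were not tested.

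Dorsal skin of 1 untreated wildtype C57BL/6J mouse and of 1 untreated *Eppk1*-/- mouse backcrossed to the same strain was dissociated as whole skin, fixed, and profiled with the 10x Genomics Flex assay, in which pairs of probes hybridise to each transcript. Age and sex were not given in the sources used here. Each genotype was 1 library of 1 animal, so no difference between genotypes has a replicate check, and p-values are not printed. The intervals printed below cover counting error only, and genotype, animal and library cannot be told apart. The wildtype library held 77638793 UMIs (median 5078 per cell) and the *Eppk1*-/- library 65118304 UMIs (median 5093 per cell).

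The interfollicular epidermis renews from a basal layer. Daughter cells stop dividing, move up through the spinous layer, where they make keratins 1 and 10, and reach the granular layer, where filaggrin and loricrin are laid down before the cell loses its nucleus and becomes a corneocyte. Epiplakin, the product of *Eppk1*, is a plakin built only of plakin repeat domains. It binds keratin filaments, whereas desmoplakin (*Dsp*), periplakin (*Ppl*) and envoplakin (*Evpl*) belong to desmosomes and the cornified envelope, and plectin (*Plec*), dystonin (*Dst*) and *Macf1* link filaments and microtubules to adhesion sites.

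All cells above the cap had more than 45000 UMIs, and none entered through the gene limit alone. Of them, 15 wildtype and 19 *Eppk1*-/- cells also had more than 7500 genes. In wildtype skin their totals ran from 45012 UMIs through a median of 60840 to 118448, and in *Eppk1*-/- skin from 45324 through 63252 to 150875. The median number of genes was 6414 and 6565. The cut fell inside a continuous range. The 3 wildtype cells just above it held 45012, 45236 and 45312 UMIs and the 3 just below 44894, 44886 and 44845, and in *Eppk1*-/- skin the neighbours were 45324, 45533 and 46231 above and 44256, 44078 and 43745 below. Although few, cells above the cap held 21.8% of all wildtype UMIs and 19.0% of all *Eppk1*-/- UMIs. Their median mitochondrial share was 0.0983% in wildtype and 0.0962% in *Eppk1*-/- skin, against 0.301% and 0.259% among the 8875 and 8617 cells within the filter. No cell over either limit was lost to the mitochondrial criterion.

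**Figure D1:**
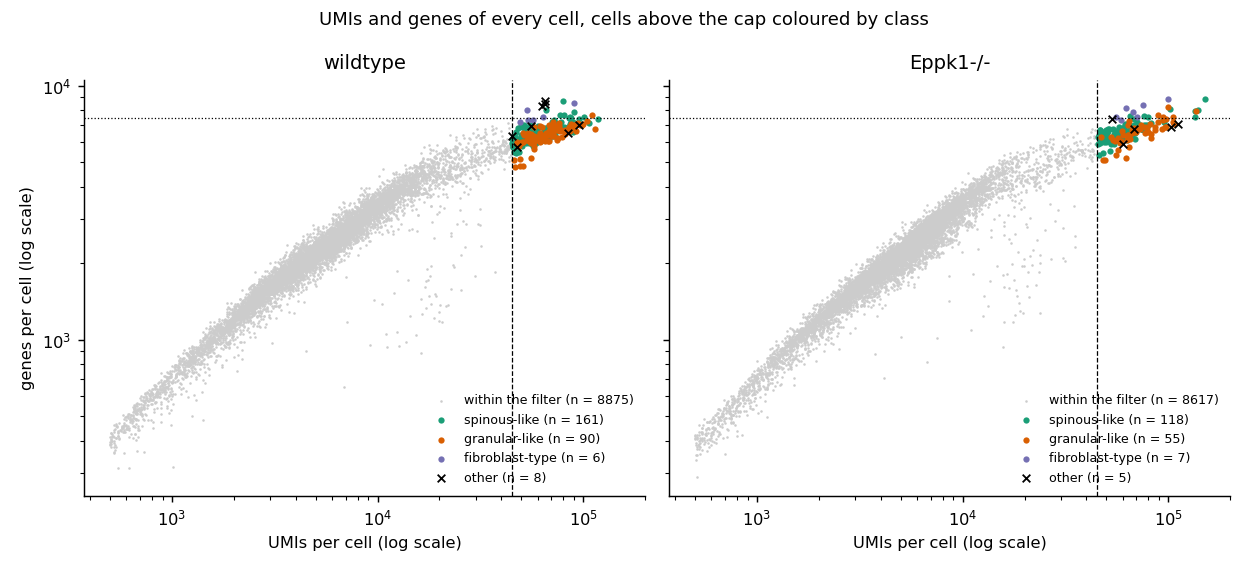
UMIs per cell (x, log scale) against genes per cell (y, log scale) in the wildtype and *Eppk1*-/- libraries, 1 point per cell. The dashed line is the limit of 45000 UMIs and the dotted line the limit of 7500 genes. Coloured points are the 265 wildtype and 185 *Eppk1*-/- cells above the cap, and all of them lie to the right of the dashed line, at the upper end of an unbroken cloud.

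Because doublets also give high totals, marker mixing was measured before the cells were described. A cell was called mixed when its second cell type list held at least 25% as many UMIs as its first. That applied to 4 wildtype (1.51%) and 5 *Eppk1*-/- (2.70%) cells above the cap, against 5.94% and 5.85% within the filter. The shares within the filter pool all cell types, so these shares do not compare like cells. Among the keratinocytes called spinous-like below, 1 of 161 wildtype and 3 of 118 *Eppk1*-/- cells above the cap were mixed, against 29 of 1025 and 29 of 964 within the filter. Among granular-like ones it was 0 of 90 and 0 of 55, against 2 of 144 and 10 of 88. The top 5% of Scrublet doublet scores took in 10 wildtype (3.77%) and 10 *Eppk1*-/- (5.41%) cells, while the median score was higher above the cap (0.0710 and 0.0713) than within the filter (0.0404 and 0.0313). Marker mixing does not see doublets of 2 keratinocytes, whose part in the results was not tested. Both libraries were run together, and 1211 droplet barcodes occurred in both. Among cells above the cap, 40 wildtype (15.1%) and 26 *Eppk1*-/- (14.1%) cells had a barcode found in the other library, close to the 13.1% and 13.7% within the filter, and 2 droplets held a cell above the cap from each mouse.

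By the share of UMIs in marker lists, the cells above the cap were nearly all differentiated keratinocytes. In wildtype skin 161 of 265 were spinous-like (60.8%, 54.6 to 66.7) and 90 granular-like (34.0%, 28.3 to 40.0). In *Eppk1*-/- skin 118 of 185 were spinous-like (63.8%, 56.4 to 70.7) and 55 granular-like (29.7%, 23.2 to 36.9). None was basal-like, although 1753 wildtype and 1476 *Eppk1*-/- cells within the filter were. Within the filter spinous-like cells made up 11.5% of wildtype and 11.2% of *Eppk1*-/- cells, and granular-like cells 1.62% and 1.02%. Put the other way, 13.6% of all wildtype spinous-like cells and 10.9% of *Eppk1*-/- ones lay above the cap, as did 38.5% of granular-like cells in either genotype.

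These classes are ranges of a score and not clusters, since each keratinocyte went to the state whose list was highest relative to its mean over keratinocytes within the filter. The second state reached 80% of the first in 19 of 161 wildtype and 14 of 118 *Eppk1*-/- spinous-like cells, and in 20 of 90 and 14 of 55 granular-like cells. With states taken from the largest raw share instead, 86.0% of wildtype and 86.5% of *Eppk1*-/- cells above the cap were spinous-like, and 9.81% and 9.19% granular-like. In wildtype granular-like cells above the cap the granular list held a median of 5.38% of UMIs and the spinous list 7.24%, and in *Eppk1*-/- ones 5.36% and 7.29%. Spinous-like cells above the cap had medians of 8.55% and 8.67% for the spinous list, 1.16% and 1.11% for the granular list, and 0.0888% and 0.0804% for the basal list.

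**Figure D2:**
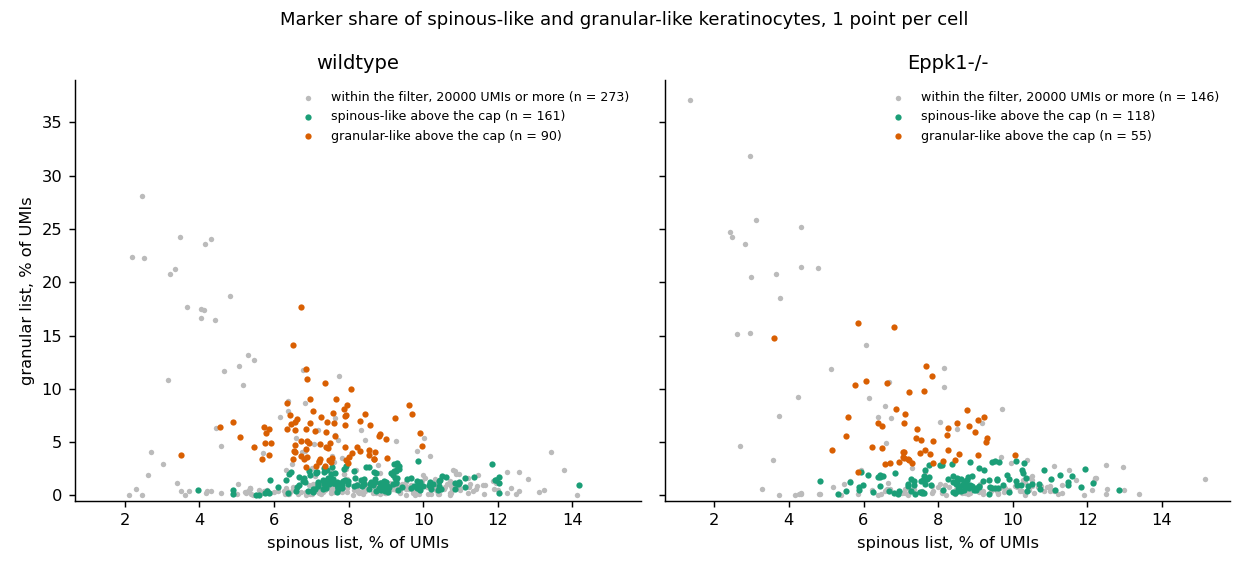
Share of each cell's UMIs in the spinous list (x, %) and in the granular list (y, %) for spinous-like and granular-like keratinocytes of each library, 1 point per cell. Green and orange points are cells above the cap, and grey points are cells of those states within the filter that had at least 20000 UMIs. Orange cells keep a spinous share near 7%, whereas the grey cells with the highest granular shares have spinous shares under 5%.

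The remaining cells above the cap were few. Upper follicle keratinocytes numbered 5 in wildtype and 1 in *Eppk1*-/- skin, cornified cells with late cornified envelope genes 2 and 3, and a sebocyte-type cell (wildtype) and a macrophage-type cell (*Eppk1*-/-) 1 each, both mixed. For 6 wildtype and 7 *Eppk1*-/- cells the largest list was that of fibroblasts, but it held only 0.574% to 11.4% of their UMIs in wildtype and 0.667% to 1.59% in *Eppk1*-/- skin. Summed over these cells, *Col1a1*, the main fibrillar collagen chain, stood at 9910 CPM (counts scaled to a total of 1e+06 per group) in wildtype, against 30270 CPM in fibroblast-type cells within the filter, and at 2648 against 28582 CPM in *Eppk1*-/- skin. *Col6a3* went the other way, with 2741 against 1497 CPM in wildtype and 3902 against 1403 CPM in *Eppk1*-/- skin. The proliferation marker *Mki67* had 0 UMIs in wildtype, which allows up to 3 counts, and 2 UMIs in *Eppk1*-/- skin. The collagen levels go against a plain fibroblast label, and these 13 cells are kept by their leading list only.

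*Eppk1*, the targeted gene (chr15:76101481-76120195, minus strand, mm10), was measured first in each group. Summed over all cells above the cap it stood at 6809 CPM in wildtype against 3055 CPM in *Eppk1*-/- skin (log2 ratio -1.16, -1.17 to -1.14). Within the filter it stood at 1889 and 390 CPM (-2.27). Thus *Eppk1* was lower in the knockout library in both sets of cells, but its UMIs were abundant in the deepest knockout cells. Which part of the transcript the probes cover, and whether that part is deleted, is not given in the sources used here, so the count by itself does not check the deletion.

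Among spinous-like cells above the cap, the *Eppk1* level per cell ran from 1265 through a median of 6591 to 20927 CPM in 161 wildtype cells and from 216 through 3136 to 10271 CPM in 118 *Eppk1*-/- cells. The ranges overlapped, yet only 6 *Eppk1*-/- cells (5.08%) exceeded the wildtype median, and 12 lay below the lowest wildtype cell. Every cell held *Eppk1* UMIs, 68 to 1409 in wildtype and 10 to 736 in *Eppk1*-/- cells. Summed, the levels were 7652 and 3316 CPM (log2 ratio -1.21, -1.23 to -1.19). Within the filter the same state had 5792 and 1498 CPM (-1.95), with per-cell medians of 2709 and 150 CPM. There 435 of 964 *Eppk1*-/- cells (45.1%) had no *Eppk1* UMI, against 53 of 1025 wildtype cells (5.17%). Restricted to cells of over 20000 UMIs within the filter, the levels were 7520 and 3057 CPM (-1.30), close to those above the cap.

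Granular-like cells above the cap held less. Per cell, *Eppk1* ran from 1672 through 4942 to 19122 CPM in 90 wildtype cells and from 982 through 2567 to 8020 CPM in 55 *Eppk1*-/- cells, with 4 *Eppk1*-/- cells (7.27%) over the wildtype median. The summed levels of 6157 and 2959 CPM gave a log2 ratio of -1.06 (-1.09 to -1.03). Within the filter the granular-like state had 4086 and 2801 CPM (-0.54), with per-cell medians of 2559 and 1494 CPM. There 17 of 144 wildtype cells (11.8%) and 5 of 88 *Eppk1*-/- cells (5.68%) had no *Eppk1* UMI, and 35.2% of the *Eppk1*-/- cells were over the wildtype median.

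The level of *Eppk1* also moved with depth. In wildtype spinous-like cells it stood at 2447 CPM in cells of up to 5000 UMIs, 3162 CPM up to 10000, 4719 CPM up to 20000, 7520 CPM up to 45000, 8260 CPM up to 60000 and 7125 CPM beyond. The *Eppk1*-/- spinous-like values over the same steps were 340, 344, 1041, 3057, 3503 and 3160 CPM. In both genotypes the level was highest from 20000 UMIs upward, on either side of the cap. Wildtype granular-like bins lay between 3879 and 4161 CPM within the filter and at 5265 and 6520 CPM above the cap. The *Eppk1*-/- granular-like bins went another way, with 1094, 3594 (7 cells), 2475 and 2979 CPM within the filter and 3684 and 2821 CPM above the cap. CPM is a share of the cell's own UMIs, so these steps are not a count of more UMIs in deeper cells. Among keratinocytes above the cap themselves, UMI total and *Eppk1* CPM had a Spearman coefficient of -0.04 in wildtype (258 cells) and -0.07 in *Eppk1*-/- skin (177 cells), whereas the spinous list share and *Eppk1* CPM had 0.47 and 0.61. These are descriptions across cells of 1 library that share one UMI total.

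**Figure D3:**
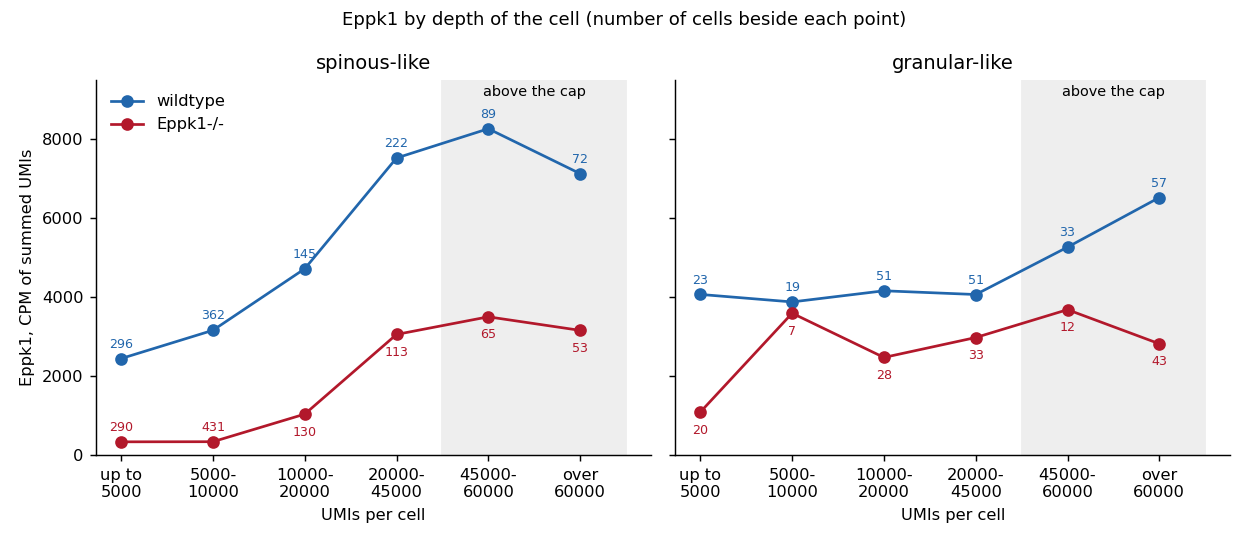
*Eppk1* level (y, CPM of UMIs summed over the cells of a bin) by UMIs per cell (x, bins) in spinous-like and granular-like keratinocytes of each library, with the number of cells beside each point. The shaded bins are above the cap. Wildtype points lie above *Eppk1*-/- points in every bin, and in spinous-like cells both lines rise up to the cap and flatten beyond it.

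Fibroblast-type cells within the filter, which should lack *Eppk1*, were used as a reference for free RNA in droplets. Mixed cells among them, 156 of 1909 in wildtype and 144 of 2852 in *Eppk1*-/- skin, were kept. These fibroblast-type cells stood at 98.1 CPM in wildtype against 19.5 CPM in *Eppk1*-/- skin, and those of over 20000 UMIs at 175 and 31.6 CPM. The 13 cells above the cap named by their fibroblast list, whose label is in doubt, had 14 *Eppk1* UMIs in wildtype (38.2 CPM) and 1 UMI in *Eppk1*-/- skin (2.05 CPM). With every cell thinned to 20000 UMIs, all spinous-like and granular-like cells above the cap still held *Eppk1*. The median was 132 thinned UMIs per spinous-like and 98.5 per granular-like cell in wildtype, and 61 and 54 in *Eppk1*-/- skin. At that depth *Eppk1* was seen in 33.3% and 14.3% of the fibroblast-type cells above the cap, and in 50% and 36% of those within the filter that were deep enough. The keratinocyte levels in *Eppk1*-/- cells therefore stood far over that floor.

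The filter consequently removed much of the *Eppk1* signal, and more of it in the knockout library. Cells above the cap held 50.2% of all *Eppk1* UMIs in wildtype (50.02 to 50.43) and 64.8% in *Eppk1*-/- skin (64.4 to 65.2). No other plakin differed as much between libraries. The shares were 39.9% and 40.9% for *Dsp*, 38.7% and 40.0% for *Ppl*, 42.1% and 43.2% for *Evpl*, 31.4% and 33.4% for *Macf1*, 12.1% and 13.1% for *Plec*, and 5.402% and 4.769% for *Dst*. For the differentiation genes they were 49.3% and 48.3% for *Flg*, 42.6% and 40.2% for *Lor*, and 52.2% and 53.5% for *Krt10*. Over all keratinocytes the log2 ratio of *Eppk1* between genotypes was -1.92 within the filter and -1.44 when cells above the cap were put back.

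The other plakins were compared between genotypes above the cap. In spinous-like cells *Dsp* stood at 8754 CPM in wildtype against 8541 CPM in *Eppk1*-/- skin (log2 ratio -0.04), *Ppl* at 1140 and 1157 CPM (0.02), *Evpl* at 841 and 888 CPM (0.08), *Macf1* at 432 and 483 CPM (0.16) and *Plec* at 243 and 279 CPM (0.20). *Dst*, which anchors keratin at hemidesmosomes, stood at 115 and 84.5 CPM (-0.44). Against a size rule of 0.5 on the log2 scale, met by 4.65% of 7242 genes in this comparison, *Eppk1* was the only one of 7 plakins past it. In granular-like cells, where 6.71% of 6973 genes met the rule, *Eppk1* and *Dst* (69.4 and 43.9 CPM, -0.66) did.

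Cells above the cap were then set against cells of the same state within the filter, in each library separately. The lists that assign a state bound their own members, so values of *Flg*, *Lor* and *Flg2* (granular list), *Krt10* (spinous list), *Krt79* and *Aldh3a1* (upper follicle list) and the *Lce1* genes (cornified list) describe the classes as much as the depth. In spinous-like cells *Lor*, the main protein of the cornified envelope, stood at 401 CPM within the filter and 2934 CPM above the cap in wildtype, and at 226 and 2480 CPM in *Eppk1*-/- skin. *Flg* stood at 183 and 872 CPM in wildtype and at 199 and 1910 CPM in *Eppk1*-/- skin. These sums lay far over the typical cell. Above the cap the per-cell medians were 593 CPM for *Lor* and 65.1 CPM for *Flg* in wildtype, and 376 and 258 CPM in *Eppk1*-/- skin. Within the filter all of these medians were 0. Above the cap 50 of 161 wildtype and 20 of 118 *Eppk1*-/- cells had no *Flg* UMI. Summed *Krt10* differed little, with 27714 and 30527 CPM in wildtype and 26615 and 31591 CPM in *Eppk1*-/- skin. Its per-cell medians lay further apart, at 20392 and 30046 CPM in wildtype and 19230 and 32264 CPM in *Eppk1*-/- skin. In granular-like cells summed *Flg* and *Lor* went the other way, with less *Flg* above the cap (27621 within and 15105 CPM above in wildtype, 55051 and 22421 CPM in *Eppk1*-/- skin) and less *Lor* (51062 and 27714 CPM, 52093 and 23204 CPM). Summed *Krt10* was higher above the cap there (11818 and 24089 CPM, 10456 and 24142 CPM). In wildtype neither *Flg* nor *Lor* passed a log2 ratio of 1 (-0.87 and -0.88), and the per-cell *Flg* medians were close, at 12858 CPM within the filter and 11493 CPM above the cap, with up to 360814 CPM in single cells within it. In *Eppk1*-/- skin the *Flg* medians were 28547 and 15378 CPM, and its ratio of -1.30 was -0.98 as a mean over cells, -0.85 with the gene limit alone (only cells of more than 7500 genes) and -0.51 with states by raw share. In wildtype *Flg* passed with the gene limit alone (-1.63), which left 1 granular-like cell, and *Lor* with states by raw share (-1.48). In the sums of *Flg*, *Lor* and *Krt10* the 2 states above the cap thus lay nearer to each other than their counterparts within the filter did. Over keratinocytes above the cap, UMI total and granular list share had a Spearman coefficient of 0.29 in wildtype and 0.43 in *Eppk1*-/- skin, again as a description across cells of 1 library.

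In spinous-like cells, 139 genes were higher and 134 lower above the cap by a log2 ratio of at least 1 in wildtype (3.67% of 7434 genes), and 243 higher and 405 lower in *Eppk1*-/- skin (8.57% of 7565 genes). The median over all genes was -0.10 and -0.12. Of the higher genes, 117 were shared, which is 84.2% of the wildtype and 48.1% of the *Eppk1*-/- genes. Of the lower genes, 104 were shared (77.6% and 25.7%), and 1 gene was past the rule in opposite directions. Fewer genes passed against the deeper cells of the same state within the filter. Against those with at least 20000 UMIs, 111 genes passed in wildtype (1.54% of 7225, 100 higher and 11 lower) and 156 in *Eppk1*-/- skin (2.13% of 7315, 65 higher and 91 lower). Genes of other cell types moved too. In *Eppk1*-/- spinous-like cells the 10 macrophage and dendritic genes summed to 471 CPM within the filter against 283 CPM above the cap, with 5 of 8 tested lower, *Cd74* most abundant and none at 0. The 9 fibroblast genes there summed to 726 and 807 CPM, with 1 of 8 tested higher and 3 lower. In wildtype the macrophage and dendritic sums were 580 and 712 CPM (0 of 9 past the rule) and the fibroblast sums 493 and 527 CPM (1 of 7 higher). The part of such RNA in the lower calls was not tested.

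The genes at the higher end in both libraries included 3 of the late differentiation list. *Flg2*, a filaggrin relative of the cornified envelope, stood at 215 CPM within the filter and 1123 CPM above the cap in wildtype (log2 ratio 2.38) and at 174 and 1179 CPM in *Eppk1*-/- skin (2.76). It had UMIs in 148 of 161 and 101 of 118 cells above the cap. *Wfdc21*, a small secreted protein of the whey acidic protein family, stood at 82.4 and 570 CPM (2.79) and at 73.0 and 675 CPM (3.21). *Myzap*, a junction protein that binds plakophilins and desmoplakin, stood at 4.13 and 37.7 CPM (3.18) and at 0.876 and 28.6 CPM (4.94), with UMIs in 78 and 47 of the cells above the cap. The G protein subunit *Gng4* (2.66 and 3.41), the secreted carbonic anhydrase *Car6* (3.25 and 4.43), the phospholipase *Pla2g3* (2.35 and 3.41), the growth factor *Fgf1* (2.39 and 3.37) and *Tmem229a* (2.44 and 2.96) completed this end with *Lor* (2.87 and 3.46) and *Flg* (2.25 and 3.26). No single cell held more than 11.97% of the UMIs of *Car6*, *Fgf1*, *Flg*, *Flg2*, *Gng4*, *Lor*, *Myzap* or *Pla2g3* in either library.

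At the lower end, *Krt79*, a keratin of the upper follicle, stood at 53.8 CPM within the filter and 2.72 CPM above the cap in wildtype (log2 ratio -4.28), where it was held by 14 of 161 cells above the cap. *Aqp3*, the glycerol and water channel of lower keratinocytes, stood at 153 and 33.2 CPM (-2.20) in wildtype and at 122 and 27.3 CPM (-2.15) in *Eppk1*-/- skin. *Fst*, the activin antagonist, stood at 139 and 8.15 CPM in wildtype (-4.09) and had a log2 ratio of -2.36 in *Eppk1*-/- skin. Others at this end were *Aldh3a1* (-2.23 and -2.42), the transcription factor *Runx1* (-1.90 and -1.93), *Cdc42ep3* (-1.75 and -2.10), *Stfa3* (-2.17 and -2.67), *Irgm1* (-1.44 and -2.21), *Ppat* (-1.53 and -1.98) and *Mgp*, which had only 2 and 4 UMIs above the cap. Against spinous-like cells of at least 20000 UMIs, *Ppat* no longer passed in either library (-0.14 and -0.26), *Mgp* reversed in wildtype (0.21) and *Stfa3* reversed in *Eppk1*-/- skin (0.48). In *Eppk1*-/- skin *Aqp3* (-0.49), *Cdc42ep3* (-0.58), *Fst* (-0.81) and *Runx1* (-0.99) did not pass there either. With the gene limit alone *Fgf1* (-2.73) and *Irgm1* (0.63) turned in wildtype and *Runx1* (0.31) in *Eppk1*-/- skin.

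**Figure D4:**
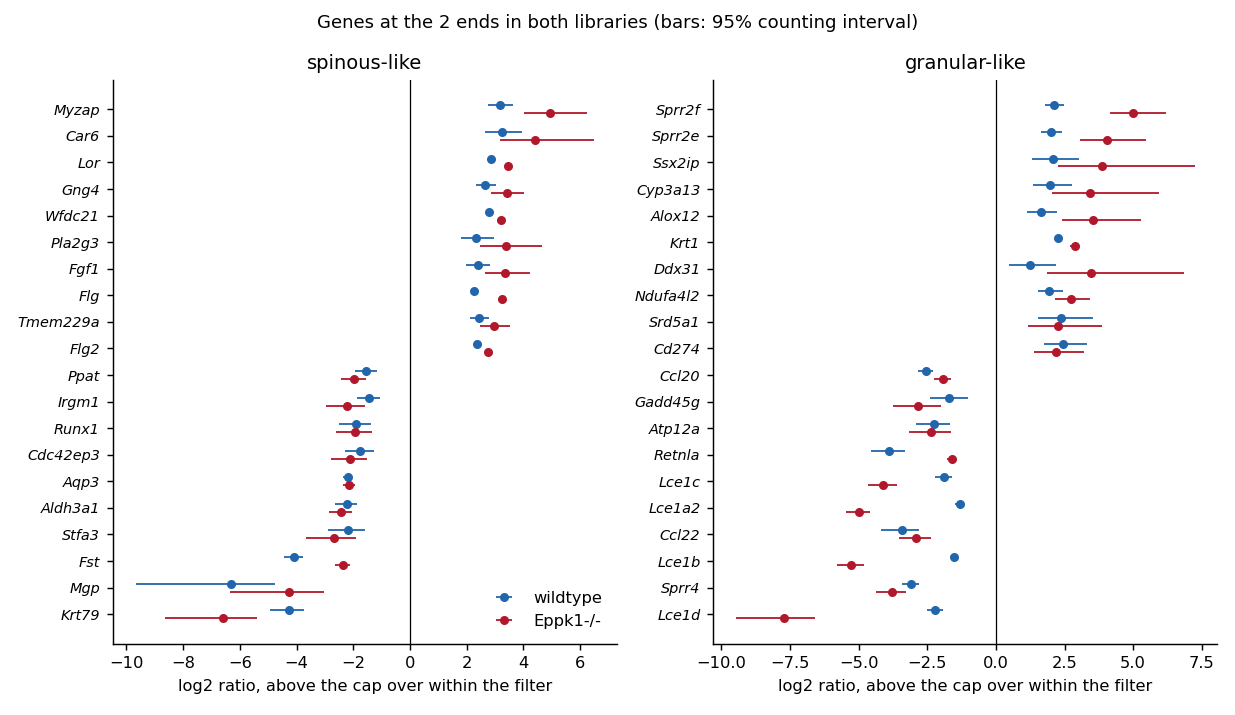
Log2 ratio of CPM above the cap over within the filter (x) for the 10 highest and 10 lowest genes past the rule in both libraries (y), in spinous-like and granular-like cells. Points are the wildtype and *Eppk1*-/- libraries and bars the 95% counting interval. *Myzap*, *Car6* and *Lor* lead the spinous-like panel, and *Lce1* genes reach lower values in *Eppk1*-/- than in wildtype granular-like cells.

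Most of the genes that passed were in none of the lists below, which describe spinous-like cells by their own members. Of 19 late differentiation and cornified envelope genes that passed the level filter (of 22 listed), 10 were higher in wildtype and 12 in *Eppk1*-/- skin, and none lower, where 1.87% and 3.21% of all genes were higher. Their median log2 ratio was 1.02 and 1.35, and their summed level was 36941 CPM within and 54623 CPM above the cap in wildtype. Against spinous-like cells of over 20000 UMIs within the filter the medians were 0.43 and 0.35, and the wildtype sum of that reference was 45722 CPM. Corneodesmosin (*Cdsn*), which holds corneocytes together, stood at 1134 and 2593 CPM in wildtype. Some members of this list also assign the states, which bounds the comparison. Of 12 basal keratin and adhesion genes, 4 were lower in wildtype and 8 in *Eppk1*-/- skin and none higher (medians -0.82 and -1.14, background 1.8% and 5.35% lower). *Krt5*, the basal keratin, stood at 826 CPM within and 373 CPM above the cap in wildtype, and *Col17a1*, a hemidesmosome collagen, at 729 and 299 CPM. The lower basal level was not seen in both libraries against the deeper reference, where the medians were -0.20 in wildtype and 0.35 in *Eppk1*-/- skin. The summed basal level above the cap was 1871 CPM in wildtype and 1802 CPM in *Eppk1*-/- skin, against 2069 and 1332 CPM in spinous-like cells of over 20000 UMIs within the filter.

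Proteases and their inhibitors, which time the shedding of corneocytes, had 4 of 18 genes higher in wildtype and 6 in *Eppk1*-/- skin, and none lower, where 1.87% and 3.21% of all genes were higher. The sum of the list was nearly equal, at 18613 CPM within and 18618 CPM above the cap in wildtype and at 18842 and 18802 CPM in *Eppk1*-/- skin. Its medians of 0.37 and 0.68 went to 0.057 and 0.049 against cells of over 20000 UMIs. Among the higher genes *Klk7*, a kallikrein that cuts corneodesmosomes, stood at 524 and 1137 CPM in wildtype, and *Serpina12*, an inhibitor of *Klk7*, at 109 and 531 CPM. Lipid barrier genes had 4 of 24 higher in wildtype and 4 of 23 in *Eppk1*-/- skin, among them *Alox12b* (212 and 460 CPM in wildtype), the lipoxygenase that starts the corneocyte lipid envelope, and *Smpd1* (41.6 and 127 CPM), the acid sphingomyelinase that makes ceramide. Both transglutaminases tested, *Tgm1* and *Tgm5*, passed in *Eppk1*-/- skin (*Tgm1* 115 and 260 CPM) and neither in wildtype (*Tgm1* 196 and 285 CPM). Their *Eppk1*-/- median of 1.09 was 0.25 against cells of over 20000 UMIs, where *Tgm1* stood at 225 CPM. Cholesterol synthesis had 0 of 22 and 3 of 22 genes higher, with medians of 0.36 and 0.69 that were 0.017 and 0.0072 against cells of over 20000 UMIs. The lipid barrier medians of 0.22 and 0.36 were 0.032 and 0.037 there. Among tight junction genes 2 of 12 were higher in each library, *Cldn23* and *Cldn3*. Immediate early genes, which rise on dissociation, had 0 of 14 past the rule in either library, and heat shock genes 0 of 9. For S phase 1 of 6 and 2 of 8 genes were lower, where 1.8% and 5.35% of all genes were. The S phase medians of -0.45 and -0.80 were -0.17 and 0.036 against cells of over 20000 UMIs. Of 13 mitosis genes present in the data (14 listed), none passed the level filter. Their summed level was 22.5 CPM within and 12.5 CPM above the cap in wildtype, and 25.5 and 23.4 CPM in *Eppk1*-/- skin. Above the cap 4 of these genes were at 0 in wildtype and 1 in *Eppk1*-/- skin, so the sums lie near the floor.

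In granular-like cells 444 genes were higher and 249 lower above the cap in wildtype (9.86% of 7025 genes), and 913 higher and 270 lower in *Eppk1*-/- skin (17.1% of 6899 genes). The median over all genes was 0.14 and 0.29, so that lower values are set against a general shift upward. With TMM scaling the share of higher genes among those past the rule went from 77.2% to 58.3% in *Eppk1*-/- granular-like cells, from 50.9% to 67.0% in wildtype spinous-like cells and from 37.5% to 57.5% in *Eppk1*-/- spinous-like cells. Shared between libraries were 319 higher genes (71.8% and 34.9%) and 85 lower genes (34.1% and 31.5%), and 5 genes were opposite. Against granular-like cells of at least 20000 UMIs, 599 genes passed in wildtype (8.63%) and 1075 in *Eppk1*-/- skin (16%).

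Several gene lists, only some of them typical of lower layers, were then examined in granular-like cells. *Krt1*, an early suprabasal keratin, stood at 302 CPM within the filter and 1440 CPM above the cap in wildtype (log2 ratio 2.25), and at 202 and 1475 CPM in *Eppk1*-/- skin (2.87). Of 5 suprabasal keratins, 3 were higher in wildtype and 4 in *Eppk1*-/- skin, where 6.32% and 13.2% of all genes were. *Krt10* did not pass against cells of at least 20000 UMIs in either library (0.86 in wildtype and 0.94 in *Eppk1*-/- skin), nor in wildtype with TMM scaling (0.96). Basal genes had 5 of 10 higher in wildtype and 3 of 10 higher and 1 lower in *Eppk1*-/- skin, among them *Trp63* (69.7 and 206 CPM in wildtype), the transcription factor of the epidermal lineage. Desmosome genes had 3 of 11 and 4 of 10 higher, led by *Dsc3* (293 and 988 CPM in wildtype), a desmosomal cadherin. Cholesterol synthesis had 1 of 22 higher in wildtype and 9 of 22 in *Eppk1*-/- skin, with *Fdps*, which makes farnesyl diphosphate, at 327 and 730 CPM in wildtype and 243 and 805 CPM in *Eppk1*-/- skin. Lipid barrier genes had 4 of 24 higher in either library and 1 lower in *Eppk1*-/- skin, near the background in the latter, among the higher ones *Alox12e* (285 and 668 CPM in wildtype) and *Sptlc3* (146 and 365 CPM), a subunit of the enzyme that starts sphingolipid synthesis.

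Late cornified envelope genes, used in the last step before cornification, were lower above the cap. Of 9 tested, 6 were lower in wildtype and 8 in *Eppk1*-/- skin, where 3.54% and 3.91% of all genes were, with medians of -1.30 and -4.08 (-0.55 and -4.42 against cells of over 20000 UMIs). *Lce1b* stood at 381 and 133 CPM in wildtype (log2 ratio -1.52) and at 391 and 10.1 CPM in *Eppk1*-/- skin (-5.26), and 22 of 90 and 10 of 55 cells above the cap had a UMI of it. *Lce1d* (-2.21 and -7.70), *Lce1c* (-1.91 and -4.11) and *Lce1a2* (-1.31 and -4.99) followed the same pattern. In wildtype, *Lce1b*, *Lce1c* and *Lce1d* did not pass against granular-like cells of at least 20000 UMIs (-0.61, -0.75 and -0.55) and *Lce1a2* reversed (0.25). Late differentiation genes had 1 of 20 higher and 1 lower in wildtype, and 2 higher and 8 lower in *Eppk1*-/- skin.

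Besides *Krt1*, the higher end in granular-like cells held 2 small proline-rich envelope genes. *Sprr2f* stood at 30.5 and 133 CPM in wildtype (log2 ratio 2.12) and at 5.998 and 202 CPM in *Eppk1*-/- skin (just over 5), with UMIs in 51 of 90 and 30 of 55 cells above the cap. *Sprr2e* had 2.01 and 4.03, but in *Eppk1*-/- skin it did not pass as a mean over cells (0.75). Reads of such near-identical family members may not be told apart fully. *Alox12*, a lipoxygenase, stood at 13.5 and 42.7 CPM (1.65) and at 3.33 and 42.2 CPM (3.53), and *Cd274*, the checkpoint ligand PD-L1, at 6.33 and 35.5 CPM (2.44) and at 7.997 and 37.5 CPM (2.18). *Ssx2ip* (2.08 and 3.86), *Cyp3a13* (1.99 and 3.43), *Ddx31* (1.24 and 3.45), *Ndufa4l2* (1.95 and 2.73) and the steroid reductase *Srd5a1* (2.38 and 2.26) completed this end. The lower end held, beside *Lce1* genes and *Sprr4* (-3.10 and -3.79), the chemokines *Ccl20* (158 and 26.9 CPM in wildtype, -2.55, and 152 and 39.5 CPM in *Eppk1*-/- skin, -1.94) and *Ccl22* (-3.44 and -2.91), *Retnla* (-3.89 and -1.60), *Atp12a* (-2.26 and -2.37) and *Gadd45g* (-1.69 and -2.82). *Retnla* turned in *Eppk1*-/- skin without shared barcodes (2.95) and with the gene limit alone (1.28), and in wildtype did not pass against cells of at least 20000 UMIs (-0.91). With the gene limit alone *Ndufa4l2* (-2.01) and *Ssx2ip* (-0.33) also turned in wildtype. There *Ccl20* (-0.72), *Ccl22* (-0.87), *Gadd45g* (-0.33), *Cyp3a13* (0.82) and *Srd5a1* (0.13) did not pass. *Ccl20* did not pass in *Eppk1*-/- skin with states by raw share (-0.45).

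Genes of other cell types moved with this comparison. In wildtype granular-like cells the 9 fibroblast genes summed to 1010 CPM within the filter and 240 CPM above the cap, with 7 of 7 tested members lower, *Dcn* most abundant and none at 0. Of all genes tested in wildtype, 3.54% were lower. The 10 macrophage and dendritic genes summed to 279 and 107 CPM, with 5 of 7 tested lower. In *Eppk1*-/- granular-like cells these sums were 465 and 323 CPM (1 of 6 lower) and 327 and 300 CPM (2 of 8 higher). Of all genes tested there, 3.91% were lower and 13.2% higher. Immediate early genes stood at 23476 CPM within and 14033 CPM above the cap in wildtype, with *Jun* lower (3228 and 1401 CPM). The part of such RNA in the lower values of *Ccl22* and *Retnla* was not tested.

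**Figure D5:**
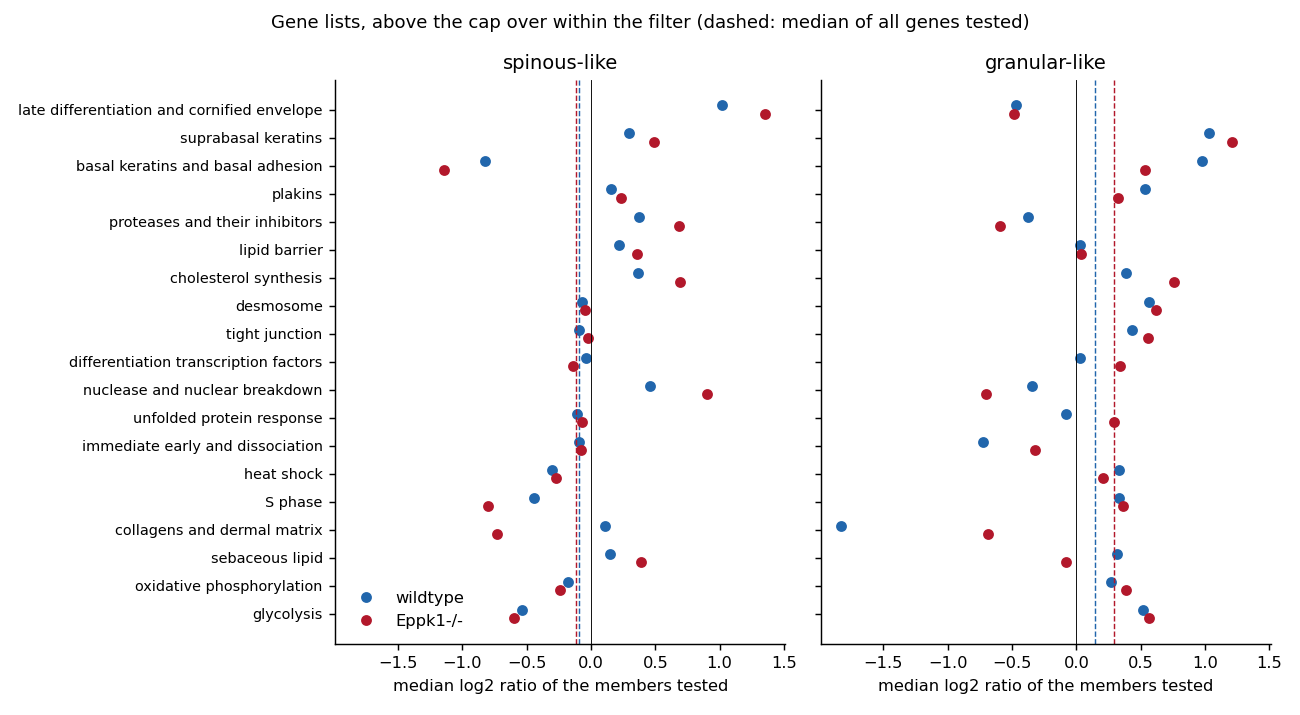
Median log2 ratio of CPM above the cap over within the filter (x) of the tested members of 19 gene lists (y), for spinous-like and granular-like cells. Points are the wildtype and *Eppk1*-/- libraries and dashed lines the median over all genes tested. Late differentiation genes lie at 1.02 and 1.35 in spinous-like cells and at -0.47 and -0.49 in granular-like cells, and basal genes at -0.82 and -1.14 against 0.97 and 0.53.

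Between genotypes, spinous-like cells above the cap had 154 genes higher and 183 lower in *Eppk1*-/- skin by at least 0.5 on the log2 scale. Without the top 5% of doublet scores it was 180 higher and 127 lower. Within the filter 6.33% of genes passed that rule in the same state. *Pnpla3*, a lipid droplet hydrolase, led the higher end among genes seen in most cells. It stood at 24.4 CPM in wildtype against 148 CPM in *Eppk1*-/- skin (log2 ratio 2.60, 2.40 to 2.81), with UMIs in 124 of 161 wildtype and 118 of 118 *Eppk1*-/- cells, and its ratio in granular-like cells above the cap was 2.44. *Arhgap8* stood at 2.11 and 13.7 CPM (2.67), in 18 of 161 and 62 of 118 cells. *Serpina3j*, a serine protease inhibitor of a large gene family whose copies may share probes, stood at 11.3 and 1.49 CPM (-2.86), in 47 and 8 cells.

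*Pnpla3* (chr15:84167837-84187236) and *Arhgap8* (chr15:84720052-84772207) lie on the chromosome of *Eppk1*. Of 108 genes tested within 10 Mb of *Eppk1*, 7 were higher and 4 lower (10.2%), against 4.56% of genes elsewhere. Over chromosome 15 without *Eppk1* it was 24 of 273 genes (8.79%). These neighbours were chosen for display after their values were seen. Besides *Pnpla3* and *Arhgap8*, the higher ones were *Arc* (162 and 314 CPM, log2 ratio 0.96), *Poldip3* (152 and 223 CPM, 0.55), *Samm50* (38.6 and 55.8 CPM, 0.53), *Pick1* (21.4 and 34.1 CPM, 0.67) and *Gpt* (6.95 and 11.2 CPM, 0.69). The lower ones were *Gcat* (64.9 and 39.4 CPM, -0.72), *Serhl* (28.0 and 15.2 CPM, -0.88), *Ly6a* (41.7 and 23.7 CPM, -0.81) and *Csf2rb* (10.9 and 2.98 CPM, -1.84). The *Eppk1*-/- line was backcrossed, and how much of the flanking chromosome stems from the original strain was not tested.

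Several genes at the lower end had their UMIs in few cells. *Cd207*, the Langerhans cell lectin, stood at 79.1 CPM in wildtype against 9.75 CPM in *Eppk1*-/- skin (log2 ratio -3.01), in 15 of 161 and 5 of 118 cells. *Fabp4* (27.8 and 0.271 CPM, -6.36) had 98.2% of its wildtype UMIs in 1 cell, *Ccl4* (-3.62) 98.1% and *Plac8* (-2.91) 72.6%. Leaving out the top cell of each gene in each library gave -1.45 for *Fabp4*, -1.62 for *Plac8* and 1.56 for *Ccl4*, which thereby reversed, while *Cd207* stayed at -3.31. *Mfge8* (46.9 and 5.82 CPM, -3.00), *Cxcl12* (-2.43), *Bst2* (-2.36), *Il1b* (-2.35, with 61.9% of wildtype UMIs in 1 cell) and *Mgl2* (-2.34) made up the rest of the lower end. The 10 macrophage and dendritic genes summed to 712 CPM in wildtype against 283 CPM in *Eppk1*-/- spinous-like cells above the cap, with *Cd74* most abundant (339 and 161 CPM) and none at 0. Within the filter those sums were 580 and 471 CPM. In granular-like cells above the cap they went the other way, at 107 CPM in wildtype against 300 CPM in *Eppk1*-/- skin. *Mgl2* (2.55) and *Ccl4* (4.04) were also higher in *Eppk1*-/- granular-like cells above the cap. The part of macrophage and dendritic RNA in these ratios was not tested.

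At the higher end the remaining genes were *Ptx3* (2.42 and 12.3 CPM, log2 ratio 2.33, in 5 and 4 cells), *Igfbp5* (1.75), *Gfpt2* (1.72), the complement component *C3* (13.0 and 42.6 CPM, 1.71), *Retnla* (1.48), *Wnt11* (6.44 and 17.6 CPM, 1.44), *Il6* (1.40) and *Dhrs9* (1.27). With the gene limit alone *Ptx3* (-0.41), *Igfbp5* (-0.71), *Gfpt2* (-2.50), *C3* (-0.13) and *Il6* (-2.73) turned. Several of these are made by dermal fibroblasts. The 9 fibroblast genes summed to 527 CPM in wildtype against 807 CPM in *Eppk1*-/- cells, with *Col1a1* most abundant (156 and 341 CPM) and none at 0. The part of fibroblast RNA in these ratios was not tested.

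Among genes of at least 50 CPM in either library, 27 were higher and 45 lower, and the following were picked from these 72 after their values were seen because they are keratinocyte genes. *Krt16*, a keratin of stressed and wounded epidermis, stood at 1851 CPM in wildtype against 1003 CPM in *Eppk1*-/- skin (log2 ratio -0.88, -0.92 to -0.84). Its ratio was -0.996 in spinous-like cells within the filter and -0.73 in granular-like cells above the cap. *Krt6a*, another keratin of stressed epidermis, stood at 107 and 62.8 CPM (-0.76), with -0.49 and 0.05 in those other sets. *Serpinb12* stood at 176 and 64.6 CPM (-1.45), with -1.45 and -1.54 there. *Dusp14*, a phosphatase of the MAP kinase pathway, stood at 281 and 153 CPM (-0.87), *Hes1*, a Notch target that holds spinous fate, at 215 and 125 CPM (-0.79), and *Hal*, which makes urocanic acid, at 863 and 583 CPM (-0.57). *Mdm2*, the negative regulator of p53, was higher at 680 and 1001 CPM (0.56). *Flg* was higher too (1.13 in spinous-like cells above the cap), but its ratio was 0.12 within the filter and 0.34 with states taken from the largest raw share. In granular-like cells its ratio was 0.57 above the cap and 0.99 within the filter.

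Between genotypes the gene lists gave few calls in spinous-like cells above the cap, apart from collagens and dermal matrix. Of 9 such genes tested, 4 were higher and 2 lower in *Eppk1*-/- skin, where 4.65% of all genes passed either way. The part of fibroblast RNA in these calls was not tested. Of 5 suprabasal keratins, 11 desmosome genes, 12 tight junction genes and 22 cholesterol synthesis genes tested in spinous-like cells above the cap, none passed the rule of 0.5, where 2.13% of all genes were higher and 2.53% lower, so that lists of this size had few calls to show. Of 19 late differentiation genes 1 was higher (*Flg*) and 1 lower (*Hal*), and of 12 basal genes 1 was lower (*Krt14*, -0.56). In granular-like cells above the cap 7 of 8 late cornified envelope genes were lower in *Eppk1*-/- skin, where 3.1% of all genes were, with a median of -2.07. Within the filter the median of the same list was 0.72, in the opposite direction. The most abundant member, *Lce1m*, was not among them, and the summed level of the list was 4411 CPM in wildtype against 4421 CPM in *Eppk1*-/- skin.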

How the data were processed

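The authors deposited raw UMI counts per gene and cell, made with Cell Ranger 8.0.1 (per the file headers) on mm10 (GRCm38) with the mouse whole transcriptome probe set of the fixed RNA profiling assay. The deposited matrices held called cells before any filter. Each library was 1 sample, assigned by its genotype label.

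The filter was that of the study and kept cells with a UMI total from 200 to 45000, a gene total from 100 to 7500 and a mitochondrial share of up to 10%. Cells above either upper limit formed the set described. The 13 mitochondrial genes, of 19059 genes in the matrices, were then left out, as in the study. Each cell went to the 1 of 15 cell type lists with the largest share of its UMIs, and each keratinocyte to the 1 of 7 state lists with the highest share relative to its mean over keratinocytes within the filter (at least 5 UMIs). Counts were summed per library and state and scaled to CPM. Log2 ratios added 0.5 UMI to each sum. Genes needed 50 UMIs in both groups together and 10 CPM in one. Without replicates no test was run, and a size rule of 1 (above the cap over within the filter) or 0.5 (the size used in the study, between genotypes) on the log2 scale stood in its place. Intervals are exact (Clopper-Pearson for shares, conditional binomial for ratios) at 95% and cover counting error only.

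The named genes were the 10 highest and 10 lowest past the rule in both libraries (between genotypes, past the rule), without markers of the same state, together with all plakins, *Flg*, *Lor*, *Krt10* and up to 4 most abundant members of each of 22 gene lists. Other list members were picked once their values had been seen. The members and the lists were chosen with earlier results of these data known. Doublets were scored with Scrublet (rate 0.06) and kept, and leaving them out was 1 of 14 other settings tried. A further 2 settings were chosen after seeing the data. Listed genes absent from the tables were not used here. The ratio code was tested on simulated data. Python 3.11.15, numpy 2.4.6, pandas 2.3.3, scipy 1.17.1, scanpy 1.11.5 and matplotlib 3.10.9 were used, with R 4.3.3 and edgeR 4.0.16 for TMM factors only.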

Additional observations from a re-analysis of the deposited data

Results flagged for a closer look

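A few genes moved in opposite directions in the 2 libraries between cells above the cap and cells of the same state within the filter. In every case this rests on 1 library per genotype and the difference was not tested. *Col6a3* in spinous-like cells had a log2 ratio of 1.03 in wildtype and -1.18 in *Eppk1*-/- skin, with 59.2% of its wildtype UMIs above the cap in 1 cell. In granular-like cells *Procr* had 1.65 and -3.62, and 98.3% of its UMIs within the *Eppk1*-/- filter set came from 1 cell. The complement gene *C1qc* had -4.70 and 1.73, from 4 and 58 UMIs above the cap, and *F13a1*, also a macrophage gene, had -4.54 and 1.84, from 6 and 53 UMIs. *Isg15*, an interferon-induced gene, had -1.12 and 1.85. Its level was 29.3 CPM within and 13.5 CPM above the cap in wildtype, and 5.33 and 20.3 CPM in *Eppk1*-/- skin. It was seen in 40 of 90 wildtype and 39 of 55 *Eppk1*-/- cells above the cap, against 31 of 144 and 8 of 88 cells within the filter. Cells above the cap are deeper, so these cell counts cannot be read as levels. The kallikrein *Klk10* had 1.23 and -1.18, in 37 of 90 and 20 of 55 cells above the cap.

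Between genotypes, 4 genes were flagged for moving in opposite directions in spinous-like and granular-like cells above the cap, which was not tested either. They were not the only ones. *H2-Ab1* (log2 ratio -1.79 and 1.07), *Cd74* (-1.07 and 1.23), *H2-Aa* (-1.54 and 0.69) and *H2-Eb1* (-1.51 and 0.50) also did so. The flagged genes were *Ptx3*, *Gfpt2*, *Il6* and *Cd207*. *Ptx3* had a log2 ratio of 2.33 in spinous-like and -3.73 in granular-like cells, where 96.5% of its wildtype UMIs lay in 1 cell. *Gfpt2* had 1.72 and -1.15, and *Il6* 1.40 and -1.31 with 79.3% of its wildtype granular-like UMIs in 1 cell. *Cd207* had -3.01 and 1.07, and 98.7% of its 79 *Eppk1*-/- granular-like UMIs lay in 1 cell.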

How the results depend on the processing

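No paired analysis was possible because each genotype was 1 library and the labels carry no replicate numbers. Of 155 alternative values of the main results 103 stayed close to those reported and 52 moved, and no alternative turned the direction of *Eppk1*. Shares and *Eppk1* ratios counted as close inside their counting interval, and gene counts within a fixed factor. The 103 include the UMI limit alone and no mitochondrial limit, which kept the same cells above the cap and so had little or no room to move. Counting only cells of more than 7500 genes left 8 spinous-like and 1 granular-like wildtype and 8 and 5 *Eppk1*-/- cells. It gave spinous-like shares of 53.3% and 42.1%, a wildtype granular-like share of 6.67%, 1100 and 1371 wildtype genes past the rule (spinous-like, granular-like) and 1111 between genotypes. *Eppk1* log2 ratios were then -1.07 over all cells, -1.42 in spinous-like and -0.60 in granular-like cells, and its UMI shares 2.45% and 7.17%. Reversed there were *Fgf1* (-2.73) and *Irgm1* (0.63) in wildtype and *Runx1* (0.31) in *Eppk1*-/- spinous-like cells, *Ndufa4l2* (-2.01) and *Ssx2ip* (-0.33) in wildtype and *Retnla* (1.28) in *Eppk1*-/- granular-like cells, and, between genotypes, *C3* (-0.13), *Gfpt2* (-2.50), *Igfbp5* (-0.71), *Il6* (-2.73) and *Ptx3* (-0.41). The fewer cells are part of that alternative, and other causes were not tested. Without the top 5% of doublet scores *Eppk1* gave -1.13 over all cells and -1.17 in spinous-like cells, its wildtype UMI share was 50.5%, and *Ccl4* reversed (1.55). Without mixed cells the UMI shares were 50.9% and 65.3%. Without shared barcodes *Eppk1* gave -1.13 and -1.15, the UMI shares were 49.3% and 65.7%, and *Retnla* reversed in *Eppk1*-/- granular-like cells (2.95). States by raw share gave 86.0% and 9.81% spinous-like and granular-like cells in wildtype and 86.5% and 9.19% in *Eppk1*-/- skin, 415 wildtype spinous-like and 2208 wildtype granular-like genes, and *Eppk1* ratios of -1.18 and -0.82. TMM scaling gave *Eppk1* -1.18 over all cells and -1.09 in granular-like cells, and shifted the median of all genes by 0.11 and 0.14 in spinous-like cells and by -0.21 in *Eppk1*-/- granular-like cells. Leaving the 20 most abundant genes out of the totals shifted the last by -0.11. A mean over cells gave 974 and 1391 spinous-like genes and -1.03 for *Eppk1* in granular-like cells. Cells of at least 20000 UMIs as reference gave 111 and 156 spinous-like genes, and reversed *Mgp* (0.21), *Stfa3* (0.48) and *Lce1a2* (0.25). A filter of 1 CPM and 10 UMIs gave 837 and 1713 spinous-like, 1597 and 2130 granular-like genes and 1806 between genotypes, and one of 50 CPM gave 105, 244, 256, 547 and 72. Thinned counts gave 944 and 1188 spinous-like genes, 747 *Eppk1*-/- granular-like genes, 599 between genotypes and -1.01 for *Eppk1* in granular-like cells. Of the alternatives added after seeing the data, leaving out cells near the cut between states gave *Eppk1* -1.11 over all cells and -0.91 in granular-like cells, and leaving out each gene's top cell reversed *Ccl4* (1.56). The UMI limit alone, or no mitochondrial limit, kept the same cells above the cap. Without the mitochondrial limit 274 spinous-like and 691 granular-like wildtype genes passed. The cause of these changes was not tested. Among the named genes, 36 further values lost the size rule and 2 gained it without changing direction. Counts of genes near 10 CPM rest on few UMIs, and the granular-like set within the filter, with 144 and 88 cells, has the fewest UMIs of the sums above the cap and within the filter.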
